A study of Caenorhabditis elegans with 2 samples.

Results

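The peaks described here are the sites of SOMI-1 chromatin immunoprecipitation (ChIP-seq) that lay next to transfer RNA (tRNA) genes in the worm Caenorhabditis elegans. The zinc finger protein SOMI-1 was first known from animals with too much of the microRNA mir-84. A peak was a member if its summit, the position the authors gave within it, lay within 500 bp of the body of a gene of biotype tRNA. Of the 26266 peaks in the list called on both replicates together (the joint list), 539 were members, or 2.05%. The 6 nuclear chromosomes carry 612 annotated tRNA genes, and 505 of them had at least 1 such summit. The choice used the distance to a tRNA gene and nothing else, so the offsets and distances below describe summits already limited to 500 bp. Signal and presence in the replicates' own lists were not used in it.

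All animals belonged to strain OP752, which carries the unc-119(tm4063) mutation and the transgene wgIs752. That transgene holds somi-1 fused to TY1, EGFP and 3xFLAG tags, together with a rescuing unc-119(+) copy. Whole young adults of mixed sex were taken at 65.5 hours, after synchronisation by starving L1 larvae hatched from bleached mothers, and chromatin of 200 to 800 bp was precipitated with an antibody to GFP. There was 1 group with 2 biological replicates, no second condition, and 1 strain, and the profile averages over all tissues. The antibody saw the tagged transgene product and not the native protein. The replicates' own lists held 29600 and 26067 peaks, and 1667 peaks of the joint list passed the authors' irreproducible discovery rate (IDR) threshold. These thresholded peaks were the 1667 of highest signal, so a peak called kept below is a peak with a joint signal of at least 91.0. The signal is the authors' score per peak, without a stated unit, and read depth was not used here. With a single group no test between conditions was possible, and shares are given with Wilson 95% intervals, which cover counting error only.

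tRNA genes are transcribed by RNA polymerase III, not by the polymerase that makes messenger RNA. Their promoter lies inside the gene, in 2 short blocks called the A box and the B box, which the factor TFIIIC binds and which later fold into arms of the tRNA. Transcription ends at a run of T just after the gene. Many tRNA genes of this animal are exact copies of each other, they lie scattered over all chromosomes and are densest on X, and a large share of them sit in introns of protein-coding genes.

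The genes at the strongest members with a summit within 100 bp of the gene show this layout, and they are printed because the summits are placed against it below. That limit leaves out C18A11.t2, the gene of the strongest member. F53F8.t1 was added as the gene of the strongest cysteine member. Each line gives the tRNA strand from 25 bases before the gene to 15 bases after it, from the RefSeq copy of WBcel235, the assembly also named ce11. Capitals mark the A box and the letters GTTCNANNC of the B box.
M02F4.t1, glycine, chrX:3036139-3036250, plus strand: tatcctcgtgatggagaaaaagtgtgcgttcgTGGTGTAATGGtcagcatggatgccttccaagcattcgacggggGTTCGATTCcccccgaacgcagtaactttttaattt
B0350.t1, lysine, chrIV:5967135-5967247, plus strand: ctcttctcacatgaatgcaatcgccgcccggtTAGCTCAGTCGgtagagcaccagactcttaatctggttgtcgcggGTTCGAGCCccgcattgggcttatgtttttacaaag
T23F1.t2, proline, chrV:15465210-15465321, minus strand: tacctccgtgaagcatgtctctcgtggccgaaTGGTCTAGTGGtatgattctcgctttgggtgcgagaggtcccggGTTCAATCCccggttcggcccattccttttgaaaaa
F15G9.t1, alanine, chrX:9743564-9743675, plus strand: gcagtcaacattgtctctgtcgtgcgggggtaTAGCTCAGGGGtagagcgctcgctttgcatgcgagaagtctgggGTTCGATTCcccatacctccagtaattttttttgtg
C33G3.t2, lysine, chrX:14063931-14064043, minus strand: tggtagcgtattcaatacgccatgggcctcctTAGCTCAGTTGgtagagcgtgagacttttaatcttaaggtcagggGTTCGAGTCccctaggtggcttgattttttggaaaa
F41D9.t3, asparagine, chrX:8404474-8404586, plus strand: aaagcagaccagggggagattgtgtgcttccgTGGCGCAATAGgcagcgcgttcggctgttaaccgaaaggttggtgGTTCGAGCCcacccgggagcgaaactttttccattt
F53F8.t1, cysteine, chrV:20694106-20694217, minus strand: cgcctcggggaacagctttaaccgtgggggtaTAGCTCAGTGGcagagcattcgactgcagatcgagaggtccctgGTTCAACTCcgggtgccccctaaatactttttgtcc
In all 7 lines the A box starts at base 8 of the gene, and a T run follows the gene. The B box starts at base 52 or 53.

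A pair of lines shows copies that are identical from the first to the last base of the gene and differ in their flanks. F46G11.t2 had a strong peak, and Y71H2AM.t1 had no summit within 500 bp in the joint list or in either replicate's own list.
F46G11.t2, proline, chrX:5801196-5801307, minus strand: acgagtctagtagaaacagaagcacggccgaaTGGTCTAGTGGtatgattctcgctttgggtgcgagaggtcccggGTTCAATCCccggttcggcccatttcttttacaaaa
Y71H2AM.t1, proline, chrIII:2711686-2711797, plus strand: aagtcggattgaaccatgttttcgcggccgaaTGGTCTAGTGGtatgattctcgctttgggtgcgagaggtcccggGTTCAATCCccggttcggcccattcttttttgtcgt
This proline gene, which T23F1.t2 also carries, has 24 copies. Of them, 17 had a joint-list summit within 500 bp, 10 had a thresholded one and 7 had none. On X 6 copies with a thresholded summit shared 4 peaks, while the 4 on the autosomes had 4. How reads that match several copies were placed is not given in the sources used here, so a peak at a copied gene is uncertain where its reads do not reach the flanks.

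Members stood high in the joint list. Of the 539 members, 177 were kept in the thresholded list (32.8%, Wilson 95% interval 29.0 to 36.9), while 6.35% of all 26266 joint-list peaks were kept. These 177 made up 10.6% of the 1667 thresholded peaks, against the 2.05% that members made up of the joint list. The median member ranked at the 88.6th percentile of signal (quartiles 67.3 and 94.9), and the median of the other peaks at the 49.3rd. Joint signals of members ran from 28.5 to 350.2 with a median of 69.8. Members were frequent among strong peaks but rare at the very top: 1 was among the 100 strongest peaks of the joint list and 41 were among the 500 strongest. The median signal of kept members, 119.5, was below that of the other thresholded peaks, 125.2.

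**Figure D1:**
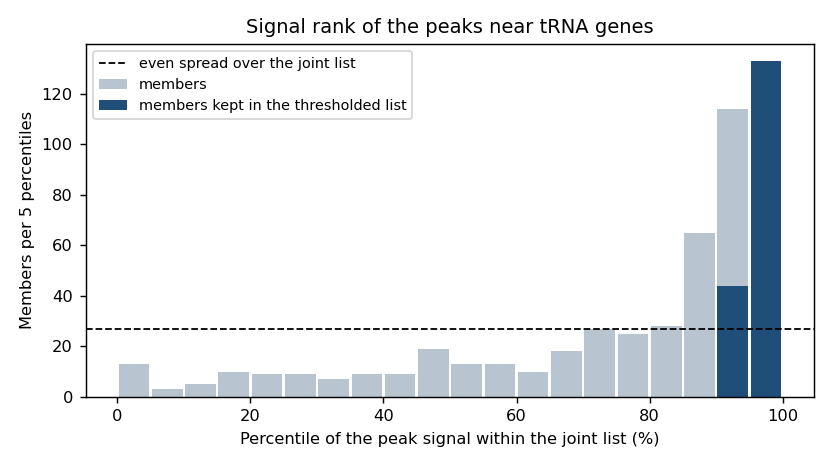
Percentile of the authors' peak signal within the joint list (x axis) against the number of peaks near tRNA genes per 5 percentiles (y axis), with the kept members in dark blue and the count an even spread would give as a dashed line. Of the 539 members, 133 lie in the highest 5 percentiles and 114 in the 5 below them, and the lower bins are thin.

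The strongest member belonged to C18A11.t2, an arginine tRNA gene on X, with a joint signal of 350.2 at rank 45. Its signals in the lists of replicates 1 and 2 were 153.2 and 204.8. Its summit lay 272 bp from the gene, on the side of its 3′ end, farther from the gene than any other summit among the 15 strongest members. A second kept peak of the same gene (joint signal 198.4, replicate signals 86.5 and 108.3) had its summit 72 bp past the gene.

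Most other leading members stood on or beside the gene itself. M02F4.t1 had a joint signal of 261.9 (rank 123) with replicate signals of 119.3 and 141.4, with the summit 24 bp before the first base of the gene, at base 2 of the line printed above. B0350.t1 on IV followed with 250.3 (rank 143; replicates 129.0 and 127.1) and its summit 8 bp past the gene. T23F1.t2 on V reached 249.4 (rank 146; replicates 130.1 and 117.0) with the summit 30 bp past the gene. At B0350.t1 and T23F1.t2 the replicates were closer to each other than at C18A11.t2.

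The strongest member inside an intron was F15G9.t1, an alanine tRNA gene within him-4, which encodes the extracellular matrix protein hemicentin. Its joint signal was 246.6 (rank 148) and its replicate signals were 106.2 and 140.1. F46G11.t2 had 243.1 (rank 152; replicates 132.0 and 111.9) with the summit 42 bp upstream of the gene. C33G3.t2 had 233.9 (rank 170; replicates 122.7 and 108.5), and F41D9.t3, in an intron of sulp-3, which encodes a sulfate permease family protein, had 222.7 (rank 193; replicates 122.1 and 109.8). At both of these the summit lay 10 bp past the first base, between the start of the gene and the end of the A box.

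The other leading members were C28G1.t1 (glutamate, signal 206.6), F14B4.t1 (arginine, 193.9, the strongest on chromosome I), F02D10.t2 (serine, 191.6), C04A11.t1 (leucine, 188.6), R04D3.t2 (valine, 188.1) and F10C1.t1 (glycine, 186.5, the strongest on II). T15B12.t1, a methionine tRNA gene in an intron of T15B12.1, led chromosome III with 180.4. All of these had peaks in the lists of both replicates. Of the 15 strongest members, C28G1.t1 was the only one with its summit in a UTR, and F10C1.t1 the only one with the word GACGCA within 50 bp of its summit.

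The summits gathered on the tRNA gene body. The median summit lay 33 bp downstream of the first base of the gene on its own strand (quartiles -21.5 and 93.5), and the median tRNA gene was 72 bp long. Measured from the middle of the gene instead, the median was -3.5 bp. Of the 539 summits, 208 lay inside the gene (38.6%, 34.6 to 42.8), 178 upstream of it and 153 downstream. Within 100 bp of the gene lay 429 (79.6%), and within 200 bp 500 (92.8%), although 500 bp was allowed.

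Kept members were the more tightly placed. Their offsets had an SD of 62 bp around a median of 32 bp, against an SD of 152.2 bp around 33 bp for the 362 members that were not kept. Genes with several members had 89 further ones beside their strongest, described below. Of these 89, 5 were kept, and their median distance to the gene was 144 bp. The further members add to the spread of members that were not kept. Being by definition weaker than the strongest member of their gene, they also add to the low kept shares outside and far from the gene. The spread, shares and distances given here were not compared without them. Summits inside the gene were kept in 99 of 208 cases (47.6%, 40.9 to 54.4), those upstream in 50 of 178 (28.1%, 22.0 to 35.1) and those downstream in 28 of 153 (18.3%, 13.0 to 25.2). Beyond 100 bp from the gene 8 of 110 members were kept (7.27%, 3.73 to 13.7), close to the 6.35% of all joint-list peaks. The median distance to the gene was 145.5 bp for the 40 members in the lowest 25 percentiles of signal and 0 bp for the 133 in the highest 5. The 2 members nearest to the 500-bp limit, at 485 and 489 bp from F11A1.t1 and Y7A5A.t5, had signals of 35.7 and 33.0. The 2 summits just beyond it, at 507 and 511 bp from ZK1010.t1 and ZK154.t4, had 51.2 and 57.8, and all 4 were outside the thresholded list.

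**Figure D2:**
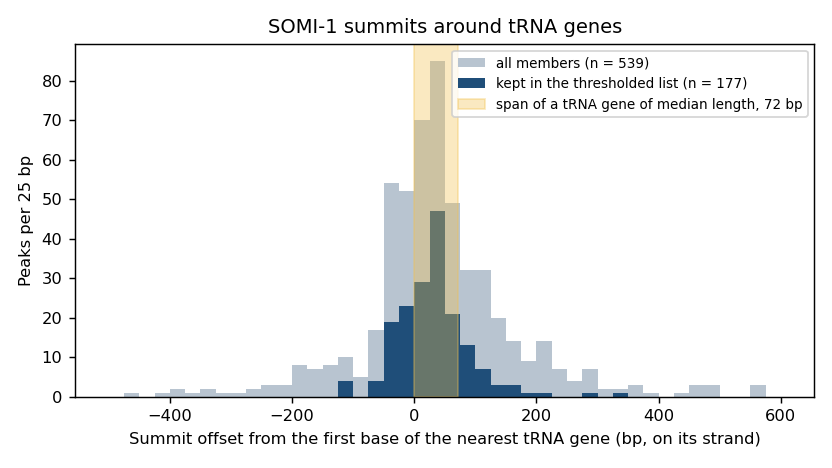
Summit offset from the first base of the nearest tRNA gene, on the gene's strand, in bp (x axis) against peaks per 25 bp (y axis), for all 539 members in grey and the 177 kept members in dark blue, with the span of a 72-bp gene shaded. Both sets peak on the gene, and kept members are rare past 200 bp on either side.

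Where a gene had several members, the summits stood at a nearly fixed spacing. The 539 members were nearest to 450 different tRNA genes, and 88 of these genes had 2 or more members. The strongest member of each gene was kept in 172 of 450 cases and the further members in 5 of 89, an order that the split by signal itself sets. The further summits lay at a median of 206 bp from the strongest one (quartiles 201 and 222), and 73 of the 89 were 150 to 250 bp away from it. Of these further summits 3 lay inside the gene, against 205 of the 450 strongest. The smallest spacing was 199 bp, and the longest tRNA gene was 122 bp. At such a spacing, a gene with its strongest summit inside had no room for a further one inside it, though further summits could lie outside. Whether peaks away from tRNA genes stand at the same spacing was not tested. Peak width was 420 bp for 535 of the 539 members, each with its summit at the centre, and 196 members overlapped another peak of the joint list. The counts of tRNA genes given below take each gene once, however many summits it has, and 1 peak can count for several neighbouring genes.

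Nearly all kept members were called in each replicate. Of the 177, 176 summits fell within peaks called on replicate 1 alone and on replicate 2 alone (99.4%, 96.9 to 99.9), as did 98.8% of all thresholded summits. Of the 362 members that were not kept, 252 lay in both lists (69.6%, 64.7 to 74.1), beside 40.1% of all joint-list peaks that were not kept. Over all 539 members the share was 79.4% (75.8 to 82.6), beside 43.8% of all joint-list summits. The exception among the kept members was Y39B6A.t9 on V, with a joint signal of 94.1 and a signal of 73.9 in replicate 2 but no peak over its summit in replicate 1. The next strongest members missing from a list were F09B9.t2 (joint signal 88.6, absent from replicate 1) and F08G5.t3 (87.8, absent from replicate 2).

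Across the 428 members found in both lists, Spearman's rho between the replicates' own signals was 0.618, and Pearson's r of their log2 values was 0.623. Both are descriptions across peaks of 1 pair of libraries, which share a control alignment, and neighbouring peaks can fall in the same replicate peak. Among the 176 kept members in both lists the median signal was 60.7 in replicate 1, and over all 177 it was 62.4 in replicate 2. Replicate 1 gave the higher value at 91 of the 176. The signals were not scaled between the lists, so which replicate is higher also depends on the scale of each list.

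**Figure D3:**
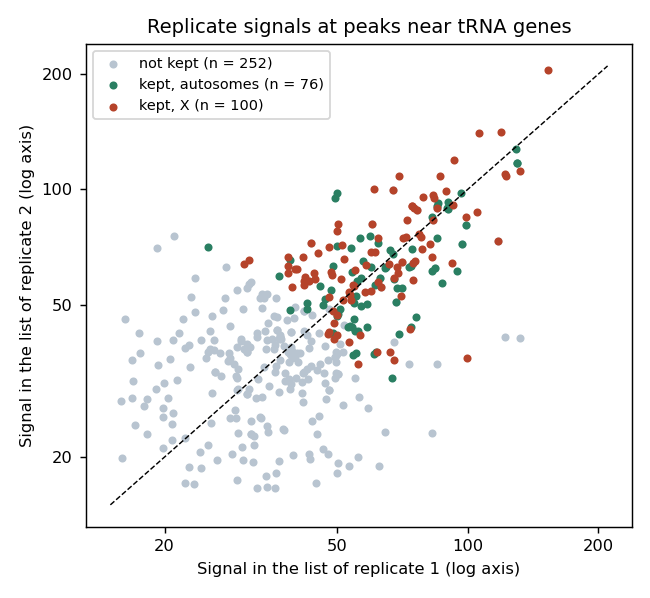
Signal of the peak covering each member's summit in the list of replicate 1 (x axis, log scale) and of replicate 2 (y axis, log scale), for the 428 members found in both lists, with kept members coloured by chromosome. Kept members fall on both sides of the dashed line of equal signal, and C18A11.t2 is the highest point, at 153.2 and 204.8.

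Members followed the tRNA genes across the chromosomes, as their choice by distance to those genes makes likely. X carried 246 of the 539 members (45.6%, 41.5 to 49.9) and 276 of the 612 tRNA genes (45.1%), but 20.3% of the other joint-list peaks. V carried 76 members for 78 genes, IV 59 for 71, I 53 for 66, III 53 for 64 and II 52 for 57. At the level of genes, 241 of the 276 tRNA genes on X had a joint-list summit (87.3%, 82.9 to 90.7) and 264 of the 336 on the autosomes (78.6%, 73.9 to 82.6), beside 38.8% of all annotated nuclear genes.

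In the joint list, the members on X had the stronger signals. On X 100 of 246 were kept (40.7%, 34.7 to 46.9) and on the autosomes 77 of 293 (26.3%, 21.6 to 31.6), a difference of 14.4 percentage points (Newcombe 95% interval 6.39 to 22.2). Of all joint-list peaks 7.63% were kept on X and 6.01% on the autosomes, and of the peaks away from tRNA genes 6.08% and 5.72%. By autosome, the share of members kept was 26.4% on I, where 6.41% of all joint-list peaks were kept, 23.1% on II (5.59% of all), 26.4% on III (7.11%), 28.8% on IV (6.08%) and 26.3% on V (5.21%). Among members the 5 autosomes ranged from 23.1% to 28.8%, and X lay above each of them.

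The difference was larger in replicate 2 than in replicate 1. When the 1667 strongest peaks of replicate 2's own list took the place of the thresholded list, 92 of 239 members on X (38.5%) and 64 of 279 on the autosomes (22.9%) were among them, 15.6 points apart. Of all peaks in that list 7.37% on X and 6.14% on the autosomes were, and of its peaks away from tRNA genes 5.91% in both places. In replicate 1's own list the shares were 82 of 245 (33.5%) and 82 of 284 (28.9%), 4.6 points apart, with an interval from -3.28 to 12.5 that includes 0. All peaks of that list gave 6.4% and 5.43%, and those away from tRNA genes 5.26% and 5.15%. The median signal percentile within each list was 89.5 on X and 85.2 on the autosomes in replicate 1, and 89.8 and 84.3 in replicate 2. Of the kept members, replicate 1 gave the higher unscaled signal at 45 of 100 on X and at 46 of 76 on the autosomes.

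**Figure D4:**
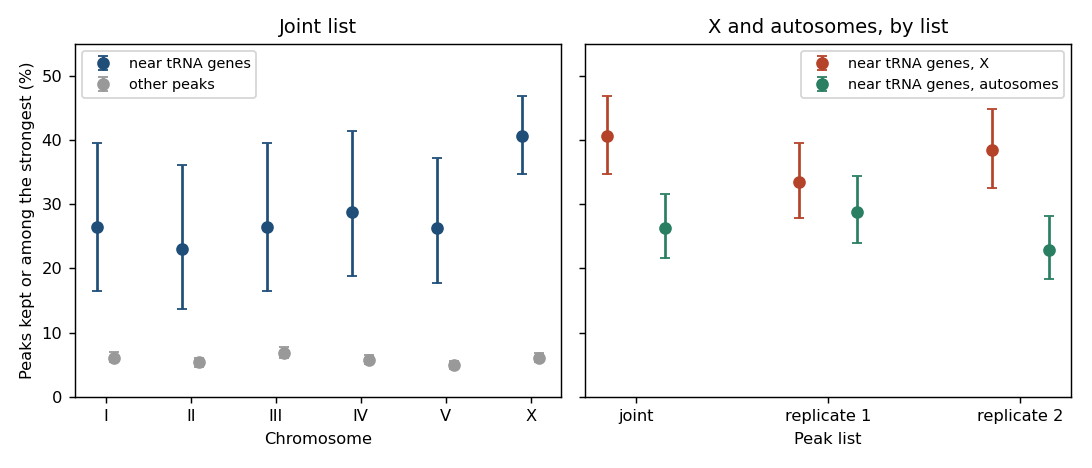
Left, share of joint-list peaks kept in the thresholded list by chromosome, for members in blue and other peaks in grey. Right, share of members on X and on the autosomes that were kept in the joint list or among the 1667 strongest of each replicate's own list. Y axes are percent, bars are Wilson 95% intervals. X stands above the autosomes in all 3 lists, and least in replicate 1, at 33.5% against 28.9%.

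Identical gene copies gave the same order of X and autosomes in the joint list. The 612 genes had 200 different sequences, and 43 of these occurred both on X and on an autosome. Among the genes with such a sequence, 91 of 185 on X had a thresholded summit within 500 bp (49.2%, 42.1 to 56.3) and 66 of 223 on the autosomes (29.6%, 24.0 to 35.9), beside 4.65% of all annotated nuclear genes. Neighbouring copies can share a peak: the 91 genes on X had 77 different thresholded peaks and the 66 on the autosomes 62. By gene, the share was higher on X for 27 of the 43 sequences, higher on the autosomes for 9 and equal for 7. The sequence of F41D9.t3 printed above had a thresholded summit at all 5 copies on X, from 4 peaks, since ZK154.t2 and ZK154.t5 share 1, and at 2 of 13 on the autosomes. The most copied sequence, the glycine gene of M02F4.t1 with 29 copies, had one at 5 of 11 on X, from 4 peaks, and at 2 of 18 elsewhere. The lysine gene of B0350.t1 went the other way, with 3 of 10 on X and 7 of 15 on the autosomes. These counts come from the joint list, and the replicate lists were not split by sequence.

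Genes with many identical copies more often had a summit than genes with a single copy. Of the 143 genes whose sequence occurs only once, 103 had a joint-list summit (72%, 64.2 to 78.7) and 27 a thresholded one (18.9%, 13.3 to 26.1). Of the 317 genes with 10 or more identical copies, 278 (87.7%, 83.6 to 90.9) and 123 (38.8%, 33.6 to 44.3) did. Genes with 2 to 4 copies had a thresholded summit in 25 of 67 cases and those with 5 to 9 copies in 27 of 85. Peaks at copied genes can hold reads of other copies, and the part of this in the counts was not tested.

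Clustering made little difference over all members. A tRNA gene was called clustered if another lay within 1000 bp, which put 236 genes in 100 clusters and left 376 lone genes. Members at clustered genes were kept in 50 of 161 cases (31.1%, 24.4 to 38.6) and those at lone genes in 127 of 378 (33.6%, 29.0 to 38.5), a difference of -2.54 points with a Newcombe 95% interval from -10.8 to 6.26. On X the shares were 29 of 92 (31.5%, 22.9 to 41.6) for clustered and 71 of 154 (46.1%, 38.4 to 54.0) for lone genes. On the autosomes they were 21 of 69 (30.4%, 20.8 to 42.1) and 56 of 224 (25%, 19.8 to 31.1). Of all joint-list peaks 6.35% were kept, 7.63% of those on X and 6.01% of those on the autosomes. The intervals for X and the autosomes were apart at lone genes and overlapped at clustered genes. Overlap of intervals is not a test, and neighbouring peaks are not independent. Whether the difference between X and the autosomes depends on clustering was not tested. These counts too come from the joint list, and the difference between lone and clustered genes was not tested within a chromosome.

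Single clusters differed widely. No cluster held 3 or more kept members, and 7 held 2: those of C18A11.t2 with C18A11.t1, T23F1.t1 with T23F1.t2, T09B4.t2 with T09B4.t1, Y105C5B.t4 with Y105C5B.t1, Y7A9D.t1 with Y7A9D.t2, F25F6.t1 with F25F6.t2, and the run of 4 valine genes from T01B4.t1 to T01B4.t4. The clusters of 5 or 6 genes all lay on X. The one from K01A12.t1 to K01A12.t3 (arginine and cysteine genes in K01A12.3, 930 bp) had 1 kept peak with a signal of 139.7, near enough to 4 of its 5 genes to count for each. The 5 glutamine genes in ajm-1, an apical junction gene, had 4 members and none kept, with 89.5 as the highest signal. The 6 histidine genes from F28H6.t2 to F28H6.t5 had 3 members and none kept (highest signal 51.6), and the 6 genes from F22F1.t2 to F22F1.t7 likewise had 3 and none (69.7).

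Introns and sequence outside protein-coding genes held most members. Summits outside protein-coding genes numbered 271 (50.3%, 46.1 to 54.5), those in introns 218 (40.4%, 36.4 to 44.6), those in coding exons 42 and those in UTRs 8. Of all joint-list peaks, 28.9% lay in introns and 27.7% in coding exons. Of the 612 tRNA genes themselves, 283 lay wholly in introns, so the places of members follow in part from those of the genes. Kept members made up 100 of the 271 outside genes (36.9%, 31.4 to 42.8), where 11.1% of all joint-list peaks were kept. In introns they were 74 of 218 (33.9%, 28.0 to 40.5), where 6.12% of all were kept. The difference between intron and outside members was -2.96 points (Newcombe 95% interval -11.3 to 5.59). In coding exons 2 of 42 were kept, F14B4.t1's second summit and W06D4.t1, beside 0.686% of all joint-list peaks there. In UTRs 1 of 8 was kept, beside 4.57% of all.

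Both places showed the same order of X and autosomes in the joint list. Intron members were kept in 37 of 81 cases on X (45.7%, 35.3 to 56.5) and 37 of 137 on the autosomes (27.0%, 20.3 to 35). Members outside genes were kept in 62 of 154 (40.3%, 32.8 to 48.2) and 38 of 117 (32.5%, 24.7 to 41.4). Of all joint-list peaks, whatever their place, 7.63% were kept on X and 6.01% on the autosomes. Members whose nearest tRNA gene lay in an intron on the strand of its host were kept in 35 of 141 cases (24.8%, 18.4 to 32.6), and those on the opposite strand in 40 of 116 (34.5%, 26.5 to 43.5), with overlapping intervals. Of all joint-list peaks in introns 6.12% were kept. Host genes with several tRNA genes ranged from all to none: unc-58, a potassium channel gene on X, had thresholded summits at 3 of 3, and pash-1, which encodes a partner of Drosha in microRNA processing, had no joint-list summit at any of its 3 glycine genes. These hosts were named after their values were seen.

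Members inside and outside the promoters of protein-coding genes were kept at similar shares. A promoter window, taken as 1000 bp before to 200 bp after the start of a protein-coding transcript, contained 123 of the 539 summits (22.8%) and 37 of the 177 kept ones (20.9%). The same window held 31.4% of all joint-list peaks and 45.1% of the thresholded ones. Members inside such a window were kept in 37 of 123 cases (30.1%, 22.7 to 38.7), and those outside it in 140 of 416 (33.7%, 29.3 to 38.3). Among all joint-list peaks the shares were 9.1% inside and 5.08% outside.

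Between amino acids most intervals overlapped. All 34 threonine and all 13 cysteine genes had a joint-list summit within 500 bp, as did 26 of 27 aspartate genes, and the lowest share was that of serine, with 27 of 39 (69.2%, 53.6 to 81.4). Thresholded summits were most frequent at cysteine genes, with 10 of 13 (76.9%, 49.7 to 91.8), where 12 genes share a sequence and 3 lie in the K01A12.3 cluster around 1 kept peak. Of these 12 genes, the 6 with a thresholded summit on X had 3 peaks, and the 3 on the autosomes had 3. Counted by peak, 7 of the 16 members nearest to a cysteine gene were kept, beside 32.8% of all members. The strongest cysteine member, at F53F8.t1, had a signal of 181.0, with 89.8 and 89.1 in the replicates. Alanine and threonine followed with 15 of 34 each (44.1%, 28.9 to 60.5) and arginine with 19 of 44 (43.2%). Methionine had 3 of 20 (15%, 5.24 to 36.0) and tryptophan 2 of 12. Apart from cysteine, the interval of each amino acid with 10 or more genes held the 33.0% of all tRNA genes. The selenocysteine gene K11H12.t1 had a joint-list summit but no thresholded one, as did the 5 genes for which RefSeq gives no amino acid.

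**Figure D5:**
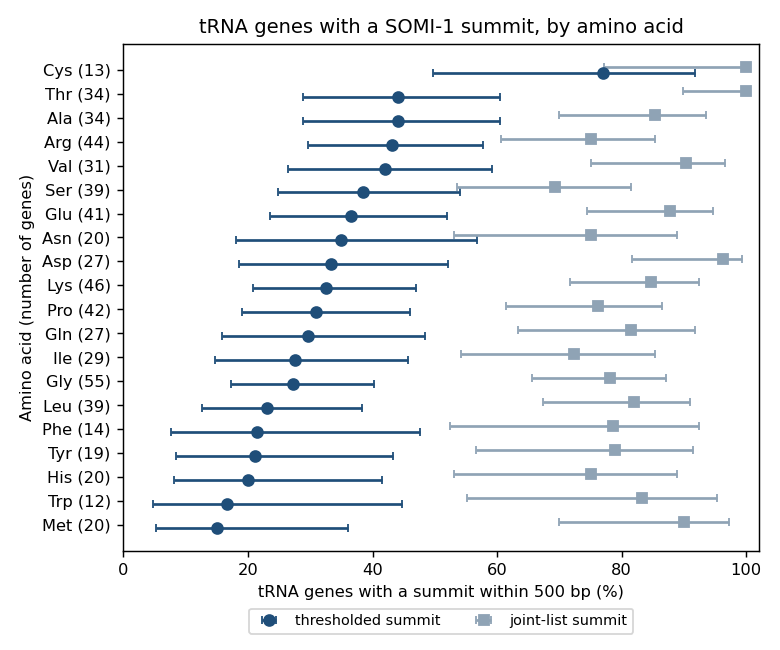
Share of tRNA genes with a summit within 500 bp (x axis, percent) for each amino acid with at least 10 genes (y axis, number of genes in brackets), for thresholded summits as circles and joint-list summits as squares, with Wilson 95% intervals. Cysteine, where several genes share a peak, is highest at 76.9% thresholded and methionine lowest at 15%, and most intervals overlap.

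Features of a working tRNA gene were near universal, and few genes lacked any of them. An A box was found in 595 of the 612 genes and the letters GTTCNANNC in 587, and 602 had a run of 4 T within 20 bases after the gene. A joint-list summit lay near 498 of the 595 genes with an A box (83.7%, 80.5 to 86.4) and near 7 of the 17 without (41.2%, 21.6 to 64.0). Thresholded summits were near 201 and 1 of them. For GTTCNANNC the joint-list counts were 486 of 587 with it (82.8%) and 19 of 25 without (76%), and for the T run 500 of 602 (83.1%) and 5 of 10. A stricter consensus of the B box, with fewer free positions and 2 more bases, was found in 265 genes, of which 216 had a joint-list summit (81.5%), beside 289 of the 347 without it (83.3%).

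tRNA pseudogenes, which resemble the genes but are annotated as nonfunctional, stood lower. RefSeq lists 209 on the nuclear chromosomes. Of these, 73 had a joint-list summit within 500 bp (34.9%, 28.8 to 41.6) and 6 a thresholded one (2.87%, 1.32 to 6.12), beside 82.5% and 33.0% of the tRNA genes and 38.8% and 4.65% of all annotated nuclear genes. For the 202 pseudogenes farther than 1000 bp from any tRNA gene the counts were 70 and 6. Other classes of small RNA genes lay on both sides of the pseudogenes. Of 346 snoRNA genes 62.4% had a joint-list summit and 24.3% a thresholded one, and of 129 snRNA genes 51.9% and 9.30% did. Among 261 miRNA genes the shares were 44.1% and 6.13%. Of 15363 piRNA genes 12.5% had a joint-list summit and 0.605% a thresholded one, and of the 20 nuclear rRNA genes 2 and 0 did.

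The summit windows of members often held the B box letters, and held the word GACGCA at a share near that of all joint-list peaks. Within 50 bases on either side of the summit, on either strand, GTTCNANNC occurred at 41.2% of members, 55.4% of kept members and 4.82% of all joint-list peaks. Members were chosen beside tRNA genes, 587 of 612 of which hold these letters. The higher shares at members, and at the more closely placed kept members, therefore follow in part from position. The stricter B box consensus, whose matches are all matches to these letters too, occurred at 91 of 539 members (16.9%), 39 of 177 kept members (22.0%) and 0.426% of all joint-list peaks. GACGCA occurred at 16 members (2.97%, 1.84 to 4.77) and 7 kept members (3.95%, 1.93 to 7.94). Of all joint-list peaks 4.10% held it, a share within both of these intervals. Of the 1490 thresholded peaks away from tRNA genes 13.4% held it (11.7 to 15.2). How far the tRNA gene sequence within the windows sets the share at members was not tested. Windows of kept members had a median GC content of 48.5%, those of the other members 43.6% and those of thresholded peaks away from tRNA genes 45.5%.

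Protein-coding genes that make or process tRNA had peaks at their promoters at shares whose intervals held those of all protein-coding genes. Of 21 listed genes for RNA polymerase III, its factors and tRNA maturation, 10 had a joint-list summit in the promoter window defined above (47.6%, 28.3 to 67.6), beside 35% of all protein-coding genes. Of the 21, 1 had a thresholded summit there (4.76%, 0.846 to 22.7), beside 4.34% of all. It stood at rpac-19, which encodes a subunit shared by RNA polymerases I and III (signal 139.2, rank 653). The next were popl-1, an RNase P subunit gene (61.2, rank 4099), hoe-1, which encodes the tRNA 3′ processing enzyme RNase Z (60.6), and rpc-2, the second largest subunit of RNA polymerase III (57.7). The TFIIIC genes tftc-1 and tftc-5 and the TFIIIB gene brf-1 had no joint-list summit in the window, and tftc-3 had one of signal 46.6.

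Of the 107 tRNA genes with no joint-list summit within 500 bp, 51 had a summit in at least 1 replicate's own list. Replicate 1's list placed a summit near 511 of the 612 tRNA genes (83.5%) and replicate 2's near 494 (80.7%).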

How the data were processed

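SOMI-1-eGFP ChIP-seq of whole worms gave 4 peak lists in narrowPeak format on ce11, per the labels. The authors called a list on each replicate and one on both together, each with 1 control alignment, and derived the thresholded list with an IDR procedure, per notes deposited beside the lists. The aligner is not given in the sources used here, nor are peak caller and depth. Peak signal is as deposited, and ranks and percentiles were taken within each list only. The replicates' own signals were also set side by side, without scaling for depth or list length. The −log10 q-value deposited by the authors was not used. The summit is the 0-based start plus the tenth column, printed 1-based.

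tRNA genes and introns came from Ensembl release 115 (WBcel235), amino acids, pseudogenes and sequences from RefSeq on the same assembly, where all 612 nuclear tRNA genes had the same coordinates and strand. The 22 mitochondrial tRNA genes were left out, since the joint list holds 0 peaks there. Distance runs from summit to gene body. Where classes could overlap, the order was coding exon, UTR, intron. Scripts used Python 3.11.15 with pandas 2.3.3 and statsmodels 0.14.6, and distances, classes and intervals were tested on simulated data.

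Nothing was tested for significance, because there is 1 group and neighbouring peaks are not independent. The members and lists were chosen with earlier results of these data known. Named are the genes of the 15 strongest members, the strongest per chromosome and place, clusters of kept members, members beside the distance limit, and the 3 strongest members missing from a replicate list. Clusters holding 2 kept members or at least 5 genes, hosts, amino acids and identical sets were named after their values were seen, as were the letters GTTCNANNC. Alternatives were other distances and cluster gaps, merged peaks, a stricter list and each replicate's list alone.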

Additional observations from a re-analysis of the deposited data

How the results depend on the processing

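Of 58 alternative values over 10 results, 49 moved by no more than the interval of the value reported, or 1.5 times for counts, and no value whose interval lay on one side of 0 changed sign. The wider distance of 1000 bp lowered the kept share from 32.8% to 26.5%, the median signal percentile from 88.6 to 82.7 and the share in both replicate lists from 79.4% to 69.6%, and moved the median offset from 33 to 39 bp. Merging overlapping peaks raised the kept share to 39.2% and the median percentile to 91.3. The kept share of all peaks after merging is not given here. With the 800 strongest of all 26266 joint-list peaks in place of the 1667 thresholded ones, the kept share was 13.9%, by construction a smaller list. Asking for a replicate summit within 100 bp lowered the share in both lists to 64.2%.

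With either replicate's list alone, members numbered 518 to 529, tRNA genes with a summit 494 to 511, the kept share was 30.1% to 31.0%, the median percentile 87.4 to 87.5, the X share 46.1% to 46.3% and the median offset 28 to 30.5 bp. Kept there meant among the 1667 strongest of 26067 peaks in replicate 2 and of 29600 in replicate 1. The difference between X and autosomes, which was added with the data in view, was 4.6 to 15.6 points, with the low value from replicate 1's list. The clustered minus lone difference was -3.56 to -2.35 points and the intron minus intergenic difference -5.47 to 2.98. Leaving out members in promoter windows, also added afterwards, changed none of the 3 values computed beyond its interval. No paired analysis was possible because the samples form a single group. Read depth is unknown here, so weak members cannot be told from background.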

Other observations

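The 5 tRNA genes without an amino acid in RefSeq, DY3.t2, C08E8.t3, C28G1.t5, F47E1.t3 and K02D3.t1, each had a joint-list summit within 500 bp and no thresholded one, and C28G1.t5 also lacked a T run of 4 in the 20 bases after the gene. Of the 29 tRNA genes annotated with 2 exons, which are spliced, 24 had a joint-list summit (82.8%, Wilson 95% interval 65.5 to 92.4) and 7 a thresholded one (24.1%, 12.2 to 42.1), beside 481 and 195 of the 583 genes with 1 exon.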
